A study of Danio rerio with 2 samples.

Results

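The 2 features described here are dab2, a zebrafish gene, and GFP, the transgene that reports on it, out of 27421 features in each of 2 count matrices. Both were found by symbol in both matrices. The cells were single cells from tails of zebrafish embryos of strain AB at 48 h post fertilisation, and all embryos carried TgBAC(isl1:TagRFP) and Tg(dab2:EGFP). In the first transgene, isl1 regulatory sequence drives a red protein, and in the second, dab2 regulatory sequence drives a green one. Live TagRFP+/EGFP+ cells were labelled isl1-derived endothelial cells (ECs) and live TagRFP-/EGFP+ cells were labelled other ECs. Each sorted fraction gave 1 library, and the number of embryos pooled is not given in the sources used here. Every cell had passed a sort on EGFP protein, so the RNA of the reporter and of dab2 is described among cells with green fluorescence only. With 1 library per fraction no test was run, and each interval given is a 95% interval that covers counting error only. Intervals on shares of cells count cells and take the cells of 1 library as independent draws. The other intervals count UMIs. None covers variation between embryos or libraries.

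The protein encoded by dab2 is an adaptor that binds the cytoplasmic tails of cargo receptors, phospholipids of the plasma membrane, clathrin and the AP-2 complex, and so brings receptors into clathrin-coated pits. In zebrafish it is known for its expression in venous and lymphatic endothelium, including the caudal vein of the tail, where scavenger endothelial cells take up material from the blood through receptors such as Stab1, Stab2 and Mrc1a. A transgene with dab2 regulatory sequence marks these vessels with EGFP. The EGFP RNA carries its own coding sequence and its own 3' end, and EGFP protein is stable, so green cells need not hold reporter RNA when they are sequenced.

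The isl1-derived-labelled library held 2015 kept cells with a median of 9757 unique molecular identifiers (UMIs, counts of single captured RNA molecules), and the other-labelled library held 708 kept cells with a median of 6636 UMIs. The libraries shared 0 barcodes. The transcripts behind the sort ran against the labels. TagRFP stood at 2.69 CPM (counts scaled to 1000000 summed UMIs) in the isl1-derived-labelled library and at 129 CPM in the other-labelled library, and isl1 stood at 1.97 and 129 CPM in the same order. Most of these UMIs of the other-labelled library, 608 of 733 for TagRFP and 638 of 730 for isl1, lay outside the endothelial and blood gates defined below. Within the endothelial gate TagRFP reached 5.31 CPM in the isl1-derived-labelled library and 28.3 CPM in the other-labelled library. There isl1 stood at 2.56 and 20.1 CPM in the same order. The names under which the matrices were deposited also run opposite to the labels. Groups follow the labels, and every direction between the libraries carries this conflict. Descriptions within a library do not depend on it.

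Cells were gated on transcripts other than dab2 and GFP. A cell was endothelial when cdh5, tie1, egfl7 and clec14a, genes of endothelial cells, together reached 10 UMIs per 10000 UMIs of the cell. It was in the blood gate when myb, runx1 and gata2b, transcription factor genes of blood progenitors, together reached 3 UMIs. In the isl1-derived-labelled library, 1301 cells were endothelial only, 474 blood only, 68 in both gates and 172 in neither. The other-labelled library held 573, 40, 13 and 82 such cells. Of the cells labelled ECs, 64.6% in the isl1-derived-labelled library and 80.9% in the other-labelled library thus met the endothelial gate alone. Endothelial-only cells were called esm1-high, after a gene of sprouting tip cells, when esm1 reached 10 UMIs per 10000. The remaining cells were split by stab2 (10 UMIs per 10000), a scavenger receptor gene of the caudal vein, and aqp8a.1 (50 UMIs per 10000), a water channel gene of arterial and capillary cells.

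Among endothelial cells, both RNAs were most abundant in those with stab2. In stab2-only cells, dab2 reached 2912 CPM (2854 to 2971, 437 cells) in the isl1-derived-labelled library and 3485 CPM (3414 to 3557, 370 cells) in the other-labelled library. GFP in the same cells reached 2462 CPM (2409 to 2516) in the isl1-derived-labelled library and 2396 CPM (2338 to 2456) in the other-labelled library. Every subclass ranked below them for both RNAs in both libraries, and the lowest endothelial level lay in esm1-high cells for both.

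Cells with both stab2 and aqp8a.1 came next, with dab2 at 1728 CPM (25 cells) in the isl1-derived-labelled library and 2377 CPM (19 cells) in the other-labelled library. Their GFP stood at 2020 and 1894 CPM in the same order. Endothelial cells with neither gene held dab2 at 1000 CPM (962 to 1039, 296 cells) in the isl1-derived-labelled library and 1246 CPM (1155 to 1342, 87 cells) in the other-labelled library, and GFP at 1332 and 1382 CPM in the same order. In aqp8a.1-only cells dab2 stood at 471 CPM (444 to 499, 302 cells) in the isl1-derived-labelled library and at 716 CPM (641 to 798, 64 cells) in the other-labelled library. GFP there reached 647 CPM (615 to 680) in the isl1-derived-labelled library and 799 CPM (719 to 886) in the other-labelled library. The esm1-high cells held dab2 at 195 CPM (176 to 215, 241 cells) in the isl1-derived-labelled library and 652 CPM (552 to 766, 33 cells) in the other-labelled library. Their GFP stood at 289 CPM (266 to 313) in the isl1-derived-labelled library and at 599 CPM (503 to 709) in the other-labelled library. Of these 33 esm1-high cells of the other-labelled library, 3 held 38.5% of the 148 dab2 UMIs, and the 3 leading for GFP held 35.3%. The 3 leading esm1-high cells held 24.7% for dab2 and 16.5% for GFP in the isl1-derived-labelled library. Between neighbours in this order the only overlapping intervals were those of dab2 in aqp8a.1-only and esm1-high cells of the other-labelled library. Summed levels of 6 muscle genes, among them tnnt3a, stood at 176 CPM in stab2-only and 27.7 CPM in aqp8a.1-only cells of the isl1-derived-labelled library, and at 272 and 54.7 CPM in those of the other-labelled library. All 6 had a UMI in stab2-only cells, and all but myhz2 in aqp8a.1-only cells. Without stab2-only cells that held 10 or more UMIs per 10000 of tnnt3a plus crygn2, dab2 was 2908 CPM in the isl1-derived-labelled library and 3467 CPM in the other-labelled library, and GFP 2456 and 2338 CPM, close to the values above.

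**Figure D1:**
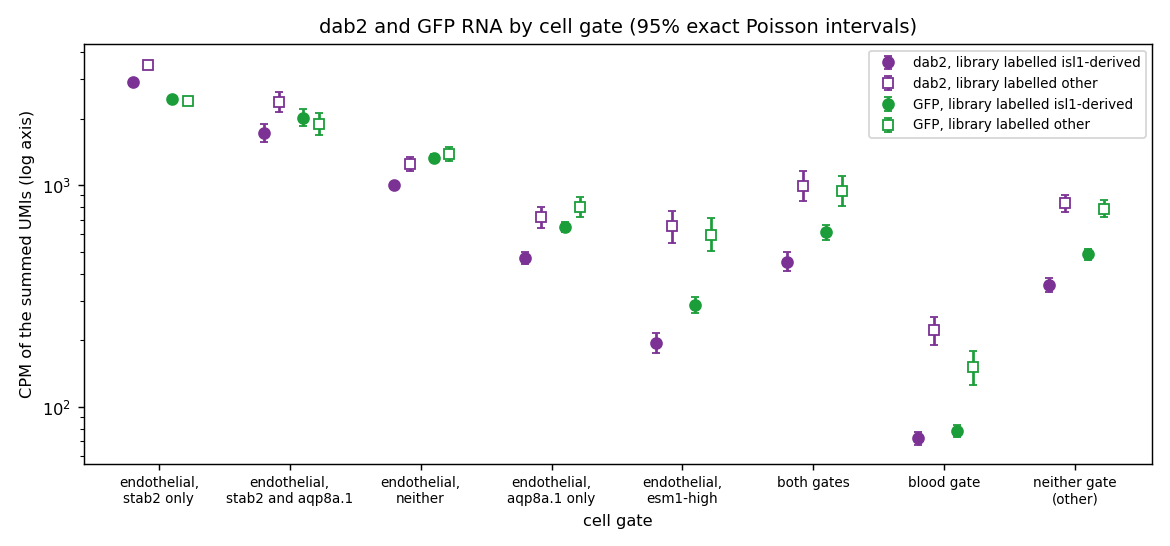
CPM of dab2 (purple) and GFP (green) summed over the cells of each gate, on a log axis, with filled circles for the isl1-derived-labelled library, open squares for the other-labelled library and bars for 95% exact Poisson intervals. Of the groups drawn, stab2-only cells lie highest, at 2912 and 3485 CPM of dab2, and the blood gate lowest, at 72.4 and 221 CPM of dab2.

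Blood-gated cells held less of both RNAs than any endothelial subclass, although most of them had at least 1 UMI. There dab2 stood at 72.4 CPM (67.8 to 77.3) in the isl1-derived-labelled library and 221 CPM (191 to 255) in the other-labelled library, and GFP at 77.7 CPM (72.9 to 82.7) and 151 CPM (126 to 179) in the same order. Among them, 3 of the 40 blood-gated cells of the other-labelled library held 58.9% of the 192 dab2 UMIs, and the 3 leading for GFP held 47.3% of the 131 GFP UMIs. Without the 3 cells with most dab2, dab2 stood at 104 CPM (82.2 to 129) in the blood gate of that library. The median blood-gated cell held 0.503 dab2 UMIs per 10000 in the isl1-derived-labelled library and 0.860 in the other-labelled library. A dab2 UMI was present in 74.1% of blood-gated cells of the isl1-derived-labelled library and in 30 of 40 of those of the other-labelled library, at median depths of 26284.5 and 22055.5 UMIs. Endothelial cells, at the lower median depths of 7693 and 6342 UMIs, had a dab2 UMI in 78.9% of cells in the isl1-derived-labelled library and 95.1% in the other-labelled library. Each cell was therefore also thinned to 2000 UMIs. Thinning dropped 62 and 30 endothelial cells of lower depth and 0 blood-gated cells. Thinned endothelial cells had a dab2 UMI in 63.0% of cells (60.2% to 65.6%) in the isl1-derived-labelled library and in 88.8% (85.8% to 91.3%) in the other-labelled library. Thinned blood-gated cells had one in 12.4% (9.61% to 15.8%) in the isl1-derived-labelled library and in 10 of 40 (12.7% to 41.2%) in the other-labelled library. For GFP the thinned shares were 69.2% of endothelial and 15.4% of blood-gated cells in the isl1-derived-labelled library, and 86.4% of endothelial and 8 of 40 blood-gated cells in the other-labelled library.

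Thinned esm1-high cells of the isl1-derived-labelled library had a dab2 UMI in 20.3% of cells (15.4% to 26.0%), an interval that overlaps that of the blood gate. A GFP UMI was present in 30.9% of them (25.1% to 37.3%), above the interval of the blood gate (12.3% to 19.0%). The 24 neural cells outside both gates, all in the other-labelled library and defined by genes such as elavl3 and chata, had dab2 at 72.2 CPM (39.5 to 121) and GFP at 67.1 CPM (35.7 to 115). Both were below the blood gate of that library as a whole. Without the 3 cells with most dab2, that blood gate held GFP at 90.6 CPM (70.5 to 115). Its intervals for both RNAs then overlap those of the neural cells. Thinned neural cells had a dab2 UMI in 3 of 23 cells, and a GFP UMI likewise in 3 of 23. Where the UMIs of blood-gated and neural cells came from was not tested. GFP made up 51.8% (49.5% to 54.0%) of the GFP plus dab2 UMIs of blood-gated cells and 50.9% (50.3% to 51.4%) of those of all cells in the isl1-derived-labelled library. The shares were 40.6% (35.2% to 46.1%) in blood-gated cells and 42.7% (42.1% to 43.4%) in all cells of the other-labelled library.

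Cells that passed both gates lay between the blood gate and the endothelial gate taken as a whole. They were above esm1-high cells for both RNAs in both libraries. In the other-labelled library they were also above aqp8a.1-only cells, where the GFP intervals overlap. Their dab2 stood at 453 CPM in the isl1-derived-labelled library and 995 CPM in the other-labelled library, and their GFP at 613 and 944 CPM in the same order. The 3 leading cells held 71.3% of the 174 dab2 UMIs of this class in the other-labelled library. Cells in neither gate were mixed. Those left after neural, erythroid, epidermal and mesenchymal cells were set aside numbered 146 in the isl1-derived-labelled library and 45 in the other-labelled library. Of them, 38 and 27 cells held dab2 at 10 or more UMIs per 10000, a limit chosen after the values were seen. These 38 cells held dab2 at 3338 CPM and GFP at 4287 CPM in the isl1-derived-labelled library, and the 27 cells held 3768 and 3577 CPM in the other-labelled library. GFP in these cells was above its level in stab2-only cells of the same library, which were not chosen on dab2. The 2 RNAs had r of 0.883 over the 146 cells and 0.899 over the 45 cells. The GFP level of cells chosen on dab2 is therefore not independent of that limit. Cells near the threshold of the endothelial gate were also read, over all kept cells and whether or not they met the blood gate. Those just inside, at 10 to 12 UMIs per 10000 of the endothelial gate genes, held dab2 at 1019 CPM (36 cells) in the isl1-derived-labelled library and 1679 CPM (7 cells) in the other-labelled library. Those just outside, at 8 to 10, held 605 CPM (29 cells) and 2682 CPM (11 cells) in the same order.

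The reporter was not a fixed multiple of the gene. Because 3'-end counting yields about 1 UMI per captured RNA, neither level was divided by length, but the capture of the 2 RNAs was not compared and a GFP share of 50% does not mean equal abundance. The ratio of GFP per dab2 UMI between cell groups does not depend on that capture as long as it is equal in the groups compared, which was not tested. Over all endothelial cells GFP made up 50.1% (49.5% to 50.7%) of GFP plus dab2 UMIs in the isl1-derived-labelled library and 42.4% (41.6% to 43.1%) in the other-labelled library. The share was lowest in stab2-only cells, at 45.8% (45.1% to 46.6%) in the isl1-derived-labelled library and 40.7% (39.97% to 41.5%) in the other-labelled library. In cells with both stab2 and aqp8a.1 it was 53.9% (50.7% to 57.1%) in the isl1-derived-labelled library. It was 44.3% (40.5% to 48.2%) in those of the other-labelled library, where the interval overlaps that of stab2-only cells. It reached 57.1% (55.9% to 58.4%) and 52.6% (49.999% to 55.2%) in the same order in cells with neither gene. In aqp8a.1-only cells it was 57.9% (56.0% to 59.7%) in the isl1-derived-labelled library and 52.7% (48.9% to 56.5%) in the other-labelled library. The esm1-high cells had 59.7% (56.6% to 62.8%) in the isl1-derived-labelled library, which overlapped the shares of aqp8a.1-only cells and of cells with neither gene. With subclass thresholds halved it was 56.9% (54.4% to 59.4%), below the 60.9% of aqp8a.1-only cells. The 47.9% (42.0% to 53.9%) of esm1-high cells of the other-labelled library overlapped the shares of every other subclass but stab2-only.

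Put as a ratio, aqp8a.1-only cells held 1.37 GFP UMIs per dab2 UMI and stab2-only cells 0.846 in the isl1-derived-labelled library, which gives 1.62 (1.49 to 1.77). The aqp8a.1-only cells of the other-labelled library held 1.12 GFP UMIs per dab2 UMI and its stab2-only cells 0.688, which also gives 1.62 (1.39 to 1.90). The difference in dab2 between the subclasses was therefore wider than that in GFP. In stab2-only over aqp8a.1-only cells dab2 had a ratio of 6.18 (5.81 to 6.59) in the isl1-derived-labelled library and 4.87 (4.36 to 5.45) in the other-labelled library. GFP had ratios of 3.81 (3.60 to 4.02) and 2.998 (2.70 to 3.34) in the same order.

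**Figure D2:**
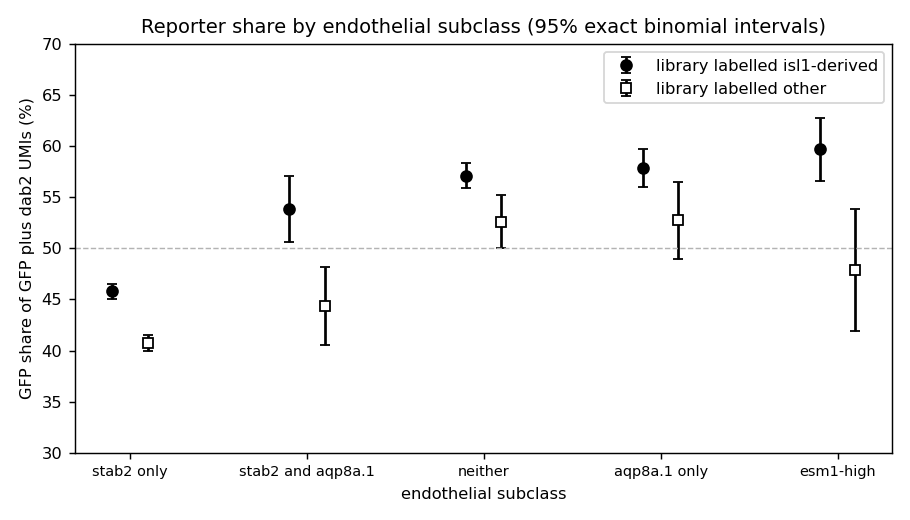
GFP UMIs as a percentage of GFP plus dab2 UMIs in each endothelial subclass, with filled circles for the isl1-derived-labelled library, open squares for the other-labelled library, 95% exact binomial intervals and a dashed line at 50%. The stab2-only cells have the lowest share in the isl1-derived-labelled library, 45.8%, and in the other-labelled library, 40.7%, where the interval overlaps that of cells with both genes.

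The share also differed between levels of stab2 and of aqp8a.1. Endothelial cells with 40 or more stab2 UMIs per 10000 had a GFP share of 36.9% (35.5% to 38.4%) and cells with 0 stab2 UMIs one of 63.2% (60.9% to 65.4%) in the isl1-derived-labelled library. In the other-labelled library these shares were 32.5% (31.2% to 33.8%) and 55.2% (49.9% to 60.4%). The bins between were not evenly graded there. The share was highest, at 64.8% (58.3% to 70.9%), in cells above 0 and under 2 stab2 UMIs per 10000. It was 45.3% at 10 to 20 and 44.5% at 20 to 40. The level of dab2 was highest in the top stab2 bin, at 3601 CPM in the isl1-derived-labelled library and 4032 CPM in the other-labelled library. GFP peaked 1 bin lower, at 20 to 40 stab2 UMIs per 10000, with 2582 and 2663 CPM in the same order, and stood at 2109 and 1938 CPM in the top bin. Cells of the top bin were shallower, with medians of 4458 and 4758 UMIs against 8177 and 8306.5 UMIs in the bin below. Depth was not separated from stab2 here. Across aqp8a.1, cells with 200 or more UMIs per 10000 had a GFP share of 62.5% in the isl1-derived-labelled library and 58.0% in the other-labelled library, and cells with 0 aqp8a.1 UMIs had 45.9% and 39.1% in the same order. In the other-labelled library the share was level between, at 45.9% for 10 to 50 and 45.7% for 50 to 100 aqp8a.1 UMIs per 10000.

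Cell by cell, the reporter followed the gene across the endothelial gate and much less within the stab2-only subclass. Pearson's r of log2(UMIs per 10000 + 1) of the 2 RNAs was 0.750 over 1301 endothelial cells of the isl1-derived-labelled library and 0.662 over 573 of the other-labelled library. Spearman's rho was 0.762 and 0.543 in the same order, and r of the linear values with counting noise subtracted was 0.720 and 0.611. These describe cells of 1 library each, with the cell's total as common denominator. Most cells held both RNAs: 73.0% of endothelial cells in the isl1-derived-labelled library and 91.6% in the other-labelled library. Neither RNA was counted in 8.61% and 2.09% of cells in the same order.

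Within subclasses, r was 0.322 in stab2-only cells of the isl1-derived-labelled library and 0.231 in those of the other-labelled library. With counting noise subtracted, r of the linear values was 0.274 and 0.281 in the same order. The range of dab2 was narrow there, with a coefficient of variation beyond counting noise of 0.407 in the isl1-derived-labelled library and 0.341 in the other-labelled library, against 1.05 and 0.617 over all endothelial cells. GFP varied more than dab2 in the stab2-only cells, with 0.539 and 0.443 in the same order. In aqp8a.1-only cells r was 0.624 in the isl1-derived-labelled library and 0.7002 in the other-labelled library, and in cells with neither gene it was 0.694 and 0.669. The esm1-high cells had r of 0.481 and 0.576. Outside both gates r was 0.877 over 172 cells of the isl1-derived-labelled library and 0.917 over 82 cells of the other-labelled library, where cells without and with both RNAs were mixed. In blood-gated cells r was 0.502 and 0.683 in the same order, at levels near 1 UMI per 10000, and Spearman's rho was 0.265 and 0.416. Without the 3 blood-gated cells with most dab2 UMIs, r was 0.457 and 0.477, and rho 0.251 and 0.265. Thinned to 2000 UMIs, r was 0.084 over 474 blood-gated cells of the isl1-derived-labelled library and 0.508 over 40 of the other-labelled library.

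**Figure D3:**
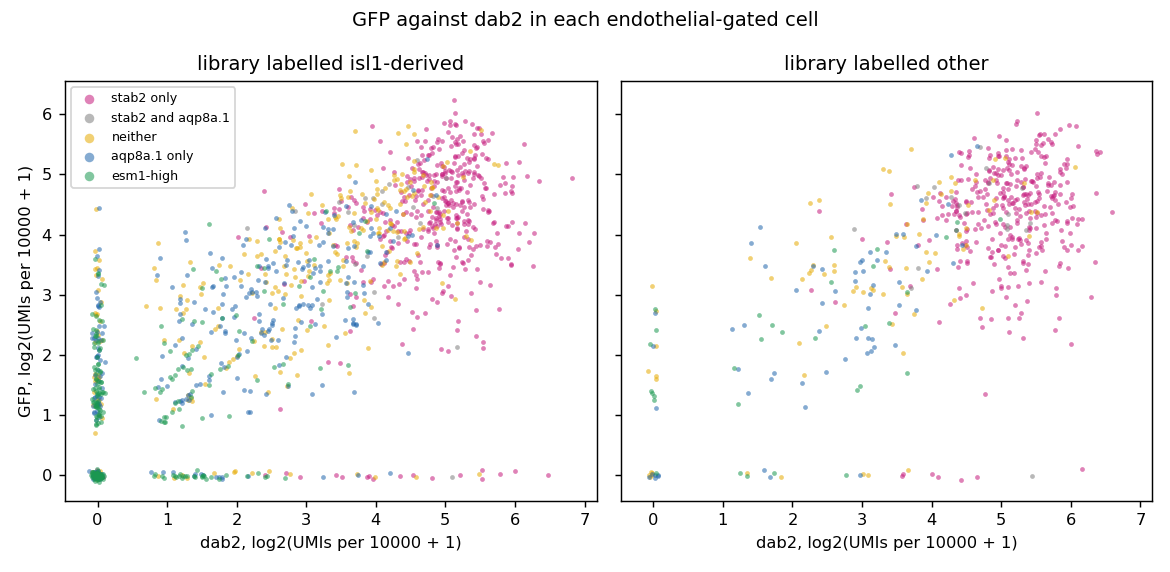
Each point is an endothelial-gated cell, with dab2 on the x axis and GFP on the y axis as log2(UMIs per 10000 + 1), coloured by subclass, for the isl1-derived-labelled library on the left and the other-labelled library on the right. The points form a band with r of 0.750 and 0.662, and the stab2-only cells at the upper end spread more in GFP than in dab2.

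Median GFP was higher in each higher dab2 bin up to 20 to 40 UMIs per 10000 and within 1 UMI per 10000 of that in the top bin. In the isl1-derived-labelled library, the median GFP level per cell was 1.19 UMIs per 10000 in cells with 0 dab2 UMIs and 2.41 in cells with up to 3 dab2 UMIs per 10000. It was 8.12 at 3 to 10, 14.9 at 10 to 20, 22.9 at 20 to 40 and 22.1 at 40 and over. The medians of the other-labelled library were 1.43, 2.47, 7.84, 15.8, 21.3 and 22.2 over the same bins. The medians of the libraries lay within 2 UMIs per 10000 of each other in each bin, although the fractions differed in mean dab2. Summed GFP in the top bin was 2797 CPM (2656 to 2943), against 2668 CPM (2605 to 2732) at 20 to 40, in the isl1-derived-labelled library, and the intervals overlap. In the other-labelled library it was 2686 CPM (2578 to 2797) in the top bin, above the 2327 CPM (2255 to 2402) at 20 to 40. The top bin was shallower, with medians of 4607 and 5040 UMIs per cell, against 8129 and 7309 UMIs at 20 to 40, and the part of depth was not tested. The GFP share was lower in each higher bin, down to 36.4% (34.9% to 37.9%) in the isl1-derived-labelled library and 35.0% (33.9% to 36.2%) in the other-labelled library at 40 and over. The share and the bins use the same dab2 counts, so this order is not independent of the binning.

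**Figure D4:**
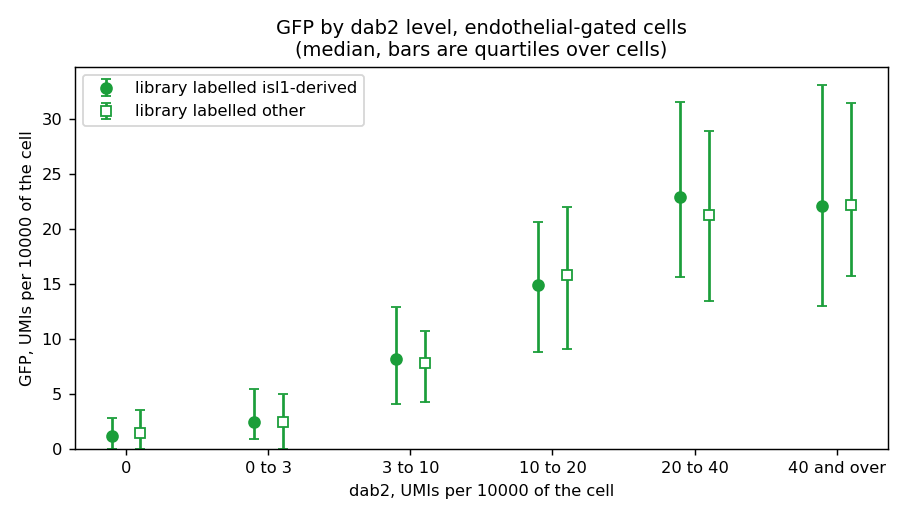
Median GFP level per endothelial cell (UMIs per 10000) by dab2 level, with bars for the quartiles over cells, filled circles for the isl1-derived-labelled library and open squares for the other-labelled library. The medians are higher in each bin up to 20 to 40, at 22.9 and 21.3, and are 22.1 and 22.2 in the last bin.

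Endothelial cells with one RNA well counted and the other at 0 were rare. Of 688 cells with 5 or more dab2 UMIs in the isl1-derived-labelled library, 9 (1.31%) had 0 GFP UMIs, and of 456 in the other-labelled library, 3 (0.658%) had 0. The highest dab2 count among them was 15 UMIs in the isl1-derived-labelled library and 7 UMIs in the other-labelled library. Stab2-only cells made up 8 of the 9 and all 3 of the 3, beside 401 of the 688 and 352 of the 456 cells with 5 or more dab2 UMIs. The median depth of the 9 and 3 cells was low, 2485 and 2044 UMIs in the same order. In the reverse direction, 10 of 710 cells with 5 or more GFP UMIs held 0 dab2 UMIs in the isl1-derived-labelled library, and 0 of 417 did in the other-labelled library. None of the 10 was stab2-only, beside 354 of the 710 cells: 5 were aqp8a.1-only, 3 had neither gene and 2 were esm1-high. The highest GFP count among them was 12 UMIs, in an esm1-high cell.

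Among stab2-only cells, GFP and dab2 had correlations of opposite sign with the composition of the cell's RNA. Ribosomal protein RNA is made up of short, stable and abundant messages, and its share of a cell's UMIs had a median of 20.05% in stab2-only cells of the isl1-derived-labelled library and 19.5% in those of the other-labelled library. Spearman's rho with this share was 0.395 for GFP and -0.16 for dab2 over 437 cells of the isl1-derived-labelled library, and 0.493 and -0.13 over 370 cells of the other-labelled library. In the quintile of cells with the highest ribosomal protein share, GFP stood at 2767 CPM (2647 to 2890) in the isl1-derived-labelled library and 2716 CPM (2582 to 2855) in the other-labelled library. In the lowest quintile GFP stood at 1394 CPM (1260 to 1539) and 1363 CPM (1222 to 1515) in the same order. For dab2 the highest quintile held 2708 CPM (2590 to 2830) in the isl1-derived-labelled library and 3377 CPM (3228 to 3532) in the other-labelled library, and the lowest quintile 3760 CPM (3537 to 3993) and 4323 CPM (4070 to 4587).

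The GFP share was accordingly 50.5% in the highest and 27.0% in the lowest quintile of the isl1-derived-labelled library, and 44.6% and 24.0% in those of the other-labelled library. Within quintiles, r between the RNAs was 0.353 to 0.495 in the isl1-derived-labelled library and 0.315 to 0.462 in the other-labelled library, against 0.322 and 0.231 over all stab2-only cells. The lowest quintile was also the shallowest, with medians of 3023 and 3209.5 UMIs per cell, against 8875 and 7466.5 UMIs in the highest. Its median mitochondrial share was 1.89% in the isl1-derived-labelled library and 1.36% in the other-labelled library, against 0.968% and 0.859% in the highest quintile. Of the 9 and 3 cells with dab2 but 0 GFP UMIs, 7 and 2 had under 10% ribosomal protein UMIs, against 41 of 679 and 44 of 453 cells with 5 or more dab2 UMIs and at least 1 GFP UMI.

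Other transcripts divided between the quintiles as well. The gate gene stab2 stood at 2197 CPM in the highest and 6136 CPM in the lowest quintile of the isl1-derived-labelled library. In the other-labelled library it stood at 2477 and 6794 CPM in the same order. Ribosomal protein share and the level of stab2 were therefore not separated here. The cytoplasmic actin gene actb2 stood at 9308 CPM in the highest and 2671 CPM in the lowest quintile of the isl1-derived-labelled library, and at 7579 and 2900 CPM in those of the other-labelled library. The cytoskeletal linker gene macf1a stood at 427 and 1114 CPM in the isl1-derived-labelled library and at 376 and 1470 CPM in the other-labelled library, highest quintile first. The mannose receptor gene mrc1a stood at 742 CPM in the highest and 3870 CPM in the lowest quintile of the isl1-derived-labelled library, and at 925 and 4219 CPM in those of the other-labelled library. The hyaluronan receptor gene lyve1b, another venous and lymphatic gene, was higher with GFP, at 1248 and 766 CPM in the isl1-derived-labelled library and at 903 and 505 CPM in the other-labelled library. The part of ribosomal protein share, depth or mitochondrial share in the levels of GFP and dab2 was not tested. Among cells with at least 20% ribosomal protein UMIs, the ratio of GFP per dab2 UMI in aqp8a.1-only over stab2-only cells was 1.45 (1.32 to 1.59) in the isl1-derived-labelled library and 1.48 (1.24 to 1.76) in the other-labelled library. Among cells under 20% the ratio was 1.90 (1.52 to 2.38) and 1.68 (1.18 to 2.39) in the same order.

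**Figure D5:**
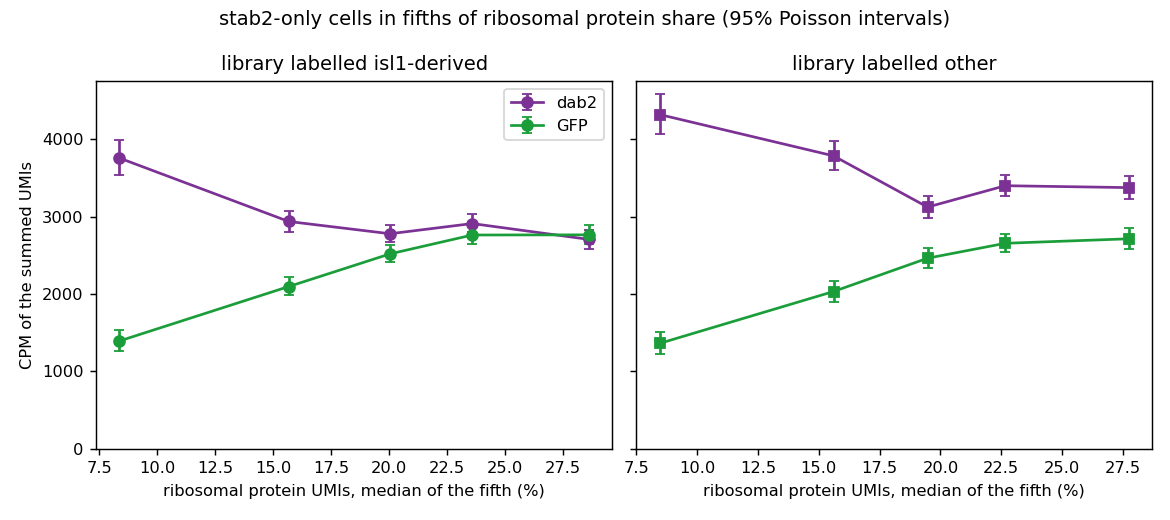
CPM of dab2 (purple) and GFP (green) in stab2-only cells sorted into quintiles by the share of ribosomal protein UMIs (x axis, median of the quintile in %), with 95% Poisson intervals, for the isl1-derived-labelled library on the left and the other-labelled library on the right. GFP is lowest in the lowest quintile, at 1394 and 1363 CPM, where dab2 is highest, at 3760 and 4323 CPM.

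The gene whose level followed dab2 most closely over endothelial cells was stab2. Likeness was Spearman's rho of log2(UMIs per 10000 + 1), taken in each library and ranked by its lower value over 3510 genes, as a description without a test. The order ran stab2 (0.814 in the isl1-derived-labelled library, 0.748 in the other-labelled library), the glutamine synthetase gene glula, mrc1a (0.792, 0.661), the scavenger receptor gene stab1, the lysosomal protease gene lgmn, il13ra2, lyve1b, the cathepsin gene ctsla, pxk and the AP-1 adaptor subunit gene ap1b1 (0.598, 0.574). GFP took rank 13. In the isl1-derived-labelled library alone it took rank 4, and in the other-labelled library alone rank 13. The genes with the most negative rho were the aquaporin gene aqp1a.1 (-0.65, -0.58), adrb3a, aqp8a.1, limch1b, the VEGF receptor gene flt1 and the Notch ligand gene dll4.

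Seen from the reporter, lyve1b came first (0.688 in the isl1-derived-labelled library, 0.601 in the other-labelled library), then glula, gpr182 and il13ra2. The gene dab2 took rank 5, with rank 1 in the isl1-derived-labelled library alone and rank 6 in the other-labelled library alone. It was followed by npl, the cystatin gene cst14a.2, rab11bb, the ferritin gene fthl27 and gnpda1. Within stab2-only cells the lists parted. There dab2 was most like stab2 (0.365, 0.417), ap1b1, stab1 and pxk, and GFP took rank 35. The reporter was most like the mitochondrial ADP/ATP carrier gene slc25a5 (0.519, 0.536), the thymosin gene tmsb4x, ppdpfb, fthl27 and cst14a.2, and dab2 took rank 485. Most opposite to GFP in these cells stood the afadin gene afdna (-0.45, -0.44), the formin gene diaph2 and ralgapa2.

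Some genes followed one RNA and not the other over all endothelial cells. The largest excess of rho with GFP over rho with dab2 belonged to slc25a5, at 0.215 with GFP and -0.013 with dab2 in the isl1-derived-labelled library and at 0.394 and -0.014 in the other-labelled library. It was followed by atp5mc3b, ybx1, h3f3d, myl12.1, actb2, krt18a.1, hnrnpa0l, ppiab and hmgn6, among them genes of ATP synthase, RNA binding, histone H3.3 and actomyosin. The largest excess with dab2 belonged to iqsec1b, in mammals an exchange factor gene for ARF6, at 0.268 with GFP and 0.492 with dab2 in the isl1-derived-labelled library and at 0.037 and 0.472 in the other-labelled library. It was followed by asap1b, afdna, ralgapa2, man1a1, macf1a, mrc1a, ZNF423, exoc6 and mcf2l2. Of these, actb2 and slc25a5 were higher and afdna, macf1a and mrc1a lower in the stab2-only quintile with the highest than in that with the lowest ribosomal protein share, in both libraries. The ranking used the difference alone, so a listed gene need not follow either RNA. In the isl1-derived-labelled library, rho with GFP and dab2 was -0.06 and -0.28 for ybx1 and 0.054 and -0.16 for actb2. From the second list, mcf2l2 had -0.17 with GFP and 0.010 with dab2 in that library. For mrc1a, rho with GFP and dab2 was 0.603 and 0.792 in the isl1-derived-labelled library and 0.314 and 0.661 in the other-labelled library, so it followed both. In the isl1-derived-labelled library krt18a.1 was negative with both, at -0.17 and -0.38. For macf1a the values were -0.23 and -0.03 there, and -0.30 and 0.004 in the other-labelled library.

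Between the libraries, dab2 differed more than GFP did. Over endothelial cells dab2 stood at 1341 CPM (1319 to 1363) in the isl1-derived-labelled library and 2660 CPM (2610 to 2711) in the other-labelled library, a ratio of 0.504 (0.491 to 0.517). GFP stood at 1346 CPM (1324 to 1368) in the isl1-derived-labelled library and 1955 CPM (1912 to 1998) in the other-labelled library, a ratio of 0.689 (0.670 to 0.708). The make-up of the gate differed, with stab2-only cells at 437 of 1301 in the isl1-derived-labelled library and 370 of 573 in the other-labelled library. Within stab2-only cells the ratio was 0.835 (0.812 to 0.860) for dab2 and 1.03 (0.994 to 1.06) for GFP. In cells with neither gene it was 0.802 (0.738 to 0.874) for dab2 and 0.964 (0.891 to 1.04) for GFP, and in aqp8a.1-only cells 0.657 (0.581 to 0.746) and 0.809 (0.721 to 0.909). In esm1-high cells it was 0.298 (0.246 to 0.363) for dab2 and 0.481 (0.399 to 0.584) for GFP. Blood transcripts differed between the libraries as well. In endothelial cells 8 haemoglobin genes summed to 159 CPM in the isl1-derived-labelled library and 59.8 CPM in the other-labelled library, with all 8 counted in each. Of 6 myeloid genes, including lyz, 5 and 4 were counted, with mpeg1.1 at 0 in both and mmp13a at 0 in the other-labelled library, and their sum was 102 and 12.7 CPM in the same order. Their part in the ratios of dab2 and GFP was not tested. With the 5 subclasses weighted equally the ratio was 0.744 for dab2 and 0.954 for GFP.

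A list of 41 genes held partners and relatives of dab2 in endocytosis and the receptor genes stab1, mrc1a and lyve1b. Of these 41 genes, 40 were in the feature list, epn1a being the exception. A gene counted as measured with at least 100 UMIs over both sums, and a ratio of 1.5 is a description of size. Between stab2-only and aqp8a.1-only cells, 13 of 22 measured members were at least 1.5-fold higher in stab2-only cells and 2 lower in the isl1-derived-labelled library, beside 19.3% of all genes higher and 11.4% lower. The 13 include stab1, mrc1a and lyve1b, which are among the genes most like dab2 in these cells. Their direction is therefore not independent of the stab2 gate. The sums of the other-labelled library were 2634770 UMIs in stab2-only and 456637 UMIs in aqp8a.1-only cells, so members reached the minimum mainly through stab2-only cells and no count is given. The scavenger and hyaluronan receptor genes had the largest ratios, with lyve1b at 47.4 (36.5 to 62.8) in the isl1-derived-labelled library and 18.4 (12.1 to 29.4) in the other-labelled library, mrc1a at 21.3 and 15.9, and stab1 at 9.47 and 5.88. Receptor genes of the lipoprotein receptor family stayed under the minimum. Of these, lrp1aa had ratios of 0.808 (0.454 to 1.45) and 0.737 (0.240 to 3.01) in the same order, and lrp8 1.11 (0.553 to 2.28) and 0.238 (0.0873 to 0.682). The clathrin heavy chain gene cltca had ratios of 3.80 (3.44 to 4.19) and 3.25 (2.71 to 3.92) in the same order, and the AP-2 medium subunit gene ap2m1a 1.68 and 1.55. The motor gene myo6b was lower, at 0.423 (0.337 to 0.531) in the isl1-derived-labelled library and 0.524 (0.369 to 0.758) in the other-labelled library, as was numbl, a relative of Numb, at 0.252 (0.169 to 0.367) in the isl1-derived-labelled library and, under the minimum, 0.283 (0.155 to 0.530) in the other-labelled library. The median log2 ratio of the measured members was 0.64 in the isl1-derived-labelled library, beside 0.03 over all genes.

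Endothelial over blood-gated cells, 26 of 31 measured members were at least 1.5-fold higher and 2 lower in the isl1-derived-labelled library, where 45.4% of all genes were higher and 27.0% lower. For the other-labelled library the sums were 4031319 endothelial and 866835 blood UMIs, and no count is given for the same reason. The ratio of dab2 was 18.5 (17.3 to 19.8) in the isl1-derived-labelled library and 12.01 (10.4 to 13.9) in the other-labelled library, and that of stab1 36.8 and 11.9 in the same order. Without the 3 blood-gated cells with most dab2 UMIs, the ratio of dab2 was 20.4 (19.0 to 21.9) and 25.6 (20.5 to 32.4). The lipoprotein receptor gene lrp8 was lower in endothelial cells, at 0.230 (0.180 to 0.292) in the isl1-derived-labelled library and, on 22 and 37 UMIs, 0.128 (0.0718 to 0.223) in the other-labelled library. The second of the 2 lower members was itsn2a, at 0.637 (0.472 to 0.855) in the isl1-derived-labelled library. On 22 and 17 UMIs it was at 0.278 (0.141 to 0.558) in the other-labelled library. The endocytic adaptor gene ldlrap1b did not reach the 1.5-fold limit in the isl1-derived-labelled library, at 0.692 (0.554 to 0.861). On 44 and 18 UMIs it was at 0.526 (0.298 to 0.966) in the other-labelled library. Between the libraries, few members stood out. Of 29 measured in endothelial cells, whose sums were 10539900 and 4031319 UMIs, 1 was at least 1.5-fold higher in the isl1-derived-labelled library, numbl at 1.83 (1.45 to 2.34), and 4 were lower, beside 4.93% of all genes higher and 7.88% lower. The 4 were mrc1a at 0.432 (0.416 to 0.449), stab1 at 0.535, cltca at 0.577 and the coated-pit initiation gene fcho2 at 0.634 (0.569 to 0.707). The median log2 ratio of the list was -0.23, beside -0.07 over all genes.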

How the data were processed

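The deposited files are UMI counts per feature and barcode, whole numbers that are not normalized. The authors produced them with Cell Ranger (version 5.0.0 per the submitters' processing notes, 5.0.1 per the file headers) on build GRCz11 from 10x Genomics Chromium v3.1 libraries, per the labels' protocols. The lowest barcodes held 500 and 519 UMIs. The libraries held 26865577 and 5698957 UMIs in 2072 and 730 barcodes (isl1-derived, other).

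Kept barcodes had 500 or more genes and a mitochondrial share under 10%, which removed 42 and 21. Scrublet (scanpy 1.11.5) called 15 and 1 doublets, which were removed, so undetected doublets remain possible. UMIs were summed per gate and library. CPM and shares have exact Poisson and Clopper-Pearson intervals, and ratios exact conditional binomial intervals, all at 95%. PCR duplicates are collapsed by UMI, and the intervals cover counting error only, of cells for shares of cells and of UMIs otherwise. Likeness used genes with at least 500 endothelial UMIs in all and 50 in each library, without clone names, mitochondrial or ribosomal protein genes. The 10 leading genes per list over endothelial cells are named. Opposite genes, likeness within stab2-only cells and the genes shown by ribosomal protein share were chosen after their values were seen. Endocytosis genes named are some of those with most UMIs or the largest ratios. In stab2-only over aqp8a.1-only cells, lrp1aa, lrp8 and ldlra are named as examples of lipoprotein receptor genes under the minimum. Correlation and ratio steps were tested on simulated data.

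The members, gates and lists were chosen with earlier results of these data known. Thresholds for dab2-positive cells outside the gates, tnnt3a plus crygn2 and ribosomal protein share, and the omission of leading blood-gated cells, were chosen after seeing the data. The ribosomal protein share sums symbols that start with rpl or rps, without rps6k kinases. The alternatives covered barcode filters, doublets, gates, subclass thresholds, thinning, TMM scaling (edgeR 4.0.16, R 4.3.3), pseudocounts, leading cells and minimum UMIs. No promoter, protein or transgene sequence is printed.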

Additional observations from a re-analysis of the deposited data

How the results depend on the processing

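With 1 library per fraction, no replicate could be left out. No paired analysis was possible because each group has 1 library and the labels give no shared replicate numbers. The library ratios of dab2 and GFP stayed below 1 in all 15 alternatives, and GFP per dab2 UMI in aqp8a.1-only over stab2-only cells stayed above 1 in all 11, but the order of the subclasses by GFP share changed. The library ratio of dab2 in endothelial cells, 0.504, was 0.485 with the gate at 20 UMIs per 10000, 0.489 with cells of both gates counted as endothelial, 0.521 with cells thinned to 2000 UMIs, 0.528 with TMM scaling (a shift of 0.07 in every log2 ratio), 0.519 as a mean over cells and 0.744 with subclasses weighted equally. That of GFP, 0.689, was 0.647 with the gate at 20, 0.722 with TMM scaling and 0.954 with subclasses weighted equally. The GFP share in endothelial cells of the isl1-derived-labelled library was 48.7% with the gate at 20, 46.7% thinned and 52.7% in cells with at least 20% ribosomal protein UMIs. In the other-labelled library these were 41.5%, 40.3% and 45.5%. GFP per dab2 UMI in aqp8a.1-only over stab2-only cells was 1.79 thinned and 1.45 with at least 20% ribosomal protein UMIs in the isl1-derived-labelled library, and 1.96 thinned in the other-labelled library. The per-cell correlation over endothelial cells of the other-labelled library was 0.541 thinned, 0.543 as Spearman's rho and 0.557 in cells with both RNAs. In stab2-only cells it was 0.474 with at least 20% ribosomal protein UMIs in the isl1-derived-labelled library, and 0.389 so and 0.0824 thinned in the other-labelled library. With a minimum of 30 UMIs, 8 endocytosis genes were past a library ratio of 1.5, 3 higher and 5 lower. The causes of these shifts were not tested. With subclass thresholds halved, the GFP share of esm1-high cells of the isl1-derived-labelled library was 56.9%, below the 60.9% of aqp8a.1-only cells and the 58.2% of cells with neither gene. With thresholds doubled, the GFP share of stab2-only cells was 43.7% in the isl1-derived-labelled library and 39.9% in the other-labelled library, still below that of aqp8a.1-only cells, 60.4% and 56.9%. It was then 47.8% in cells with neither gene of the other-labelled library and 35.3% (14.2% to 61.7%) in cells with both, below stab2-only cells.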

Other observations

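The 2 RNAs were also read in smaller endothelial groups, with limits chosen after seeing the data. Endothelial cells with at least 2 UMIs of prox1a, a transcription factor gene of lymphatic identity, held dab2 at 1572 CPM (1424 to 1730, 26 cells) and GFP at 1760 CPM (1604 to 1927) in the isl1-derived-labelled library. In the other-labelled library, the 7 such cells held dab2 at 2115 CPM (1785 to 2488) and GFP at 1138 CPM (899 to 1420), with 78.6% of the dab2 UMIs in 3 cells. Cells with 0 prox1a UMIs held dab2 at 1328 and 2658 CPM and GFP at 1325 and 1975 CPM in the same order of libraries. Endothelial cells with at least 5 UMIs per 10000 of mitotic genes such as mki67 and top2a held dab2 at 920 CPM and GFP at 1089 CPM in the isl1-derived-labelled library (105 cells), and at 2724 and 2289 CPM in the other-labelled library (38 cells). Their r between the RNAs was 0.715 and 0.583, against 0.752 and 0.666 in the remaining endothelial cells.

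Cells with 10 or more UMIs per 10000 of tnnt3a, a troponin gene of muscle, plus crygn2, a crystallin gene, were among those richest in the reporter when taken over all gates. In the isl1-derived-labelled library, 17 such cells held GFP at 3531 CPM (3161 to 3932) and dab2 at 3148 CPM (2800 to 3528). The other-labelled library had 27 such cells, which held GFP at 3650 CPM (3371 to 3945) and dab2 at 3776 CPM (3493 to 4076). Those within the endothelial gate held GFP at 2853 CPM (2477 to 3269, 12 cells) and 3408 CPM (3113 to 3723, 21 cells) in the same order. Stab2-only ones held 2805 CPM (2388 to 3273) in the isl1-derived-labelled library, overlapping 2456 CPM (2402 to 2510) in stab2-only cells below the limit. In the other-labelled library these were 3468 CPM (3162 to 3795) and 2338 CPM (2278 to 2399). Both RNAs were counted in all 17 and all 27 cells. GFP made up 52.9% and 49.1% of GFP plus dab2 UMIs there in the same order. Among stab2-only cells of the isl1-derived-labelled library, the share was 47.4% (41.9% to 52.8%) in the 10 cells above that limit, where 3 cells held 72.05% of the GFP UMIs, and 45.8% in those below it, and the interval covers both. In the other-labelled library it was 47.6% (44.4% to 50.7%) in the 20 stab2-only cells above the limit and 40.3% (39.5% to 41.1%) in those below.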
